A study of Mus musculus with 8 samples.

Results

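The collagens are the main structural proteins of the extracellular matrix, and their genes were read here across 8 microarrays of mouse bone marrow stromal cells. A gene was taken as a collagen gene when its annotated symbol had the form Col, number, a, number, which gave 44 of the 19938 genes measured. These 44 genes comprised 11 fibrillar collagens, 6 basement membrane (type IV) collagens, 9 fibril-associated collagens with interrupted triple helices (FACIT) and 18 others. Each gene was represented by its brightest probe set that named a single gene, and no gene was left out for low brightness. The study asked how exposure to microgravity affects marrow osteoprogenitors kept in growth or in osteoinductive conditions. Stromal cells were cultured from the femurs and tibiae of C57BL/6 mice 6 to 8 weeks old and carried on Skelite, a calcium phosphate scaffold.

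The 8 arrays crossed 2 media with 4 conditions, with 1 array for each combination. In the microgravity condition, constructs in growth or in osteoinductive medium flew in automated hardware inside the KUBIK space incubator. In the centrifuge condition, constructs in either medium flew in the same kind of hardware on a 1 g centrifuge in that incubator. In the ground condition, constructs in either medium stayed on Earth in hand-operated incubation units, and in the laboratory condition they stayed in multiwell culture dishes. All groups shared the strain, the cell type and the scaffold. The labels of both centrifuge samples read microgravity in the field for gravity, although the title and description of each name the centrifuge, and the titles were followed. The description of the osteoinductive centrifuge sample names growth medium once, while the same label records the sample as osteo-induced. The labels do not say that arrays came from separate mice or cultures. No combination was repeated, so the spread behind each p-value is that of the arrays at hand and not of replicates. For the medium and between conditions, it is how far condition differences vary between media. In the flight and interaction fits, it also holds the differences of microgravity from centrifuge and of ground from laboratory. Any of this spread may be technical. "Flight" below means the 4 microgravity and centrifuge arrays, and "ground-based" means the 4 ground and laboratory arrays. Flight hardware was automated and ground hardware was not, so flight and the kind of hardware cannot be told apart.

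Collagen chains are made in the endoplasmic reticulum, where prolyl and lysyl residues are hydroxylated and the chains fold into a helical trimer. Fibrillar procollagens are then trimmed outside the cell, assemble into fibrils and are crosslinked by lysyl oxidases. Basement membrane collagens form sheet-like networks under epithelia, around vessels and around muscle fibres, and FACIT collagens coat the surface of fibrils. Type I collagen is the bulk protein of bone, whereas types II, IX, X and XI are known mainly from cartilage. In marrow stromal cultures, type I, III, V and VI genes are typical of the fibroblast-like population.

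Array medians of linear intensity lay between 180.9 and 196.4. Of 11 marrow stromal marker genes measured, 10 were brighter on average than the 40th percentile of all probe sets (an intensity of 141), and the leptin receptor gene Lepr was not. Of 9 haematopoietic and macrophage markers, 6 were above that level, and Ptprc, the common leukocyte antigen, was at 116 to 158 on the 8 arrays. Of the 44 collagen genes, 43 lay above the 40th percentile and Col4a6 lay below it. Values below are linear intensities as deposited. Probe sets differ in response, so the levels of different genes are not ranked against each other. Where a ratio of 2 genes or a sum over a marker list is given, only its change from array to array can be read. The osteoinductive microgravity array stood apart from the other 3 flight arrays in some lung and endothelial markers and in the macrophage marker Lyz2. Sftpc, a surfactant protein gene, was at 7190 against 724 to 1515, and Slc34a2, a phosphate transporter gene of lung epithelium, at 1777 against 156 to 245. Lyz2, a lysozyme gene of macrophages, was at 841 against 207 to 222, and Pecam1, an endothelial adhesion gene, at 463 against 168 to 215. Among the other haematopoietic and macrophage markers, Csf1r (235), Adgre1 (87), Cd68 (244), Laptm5 (270) and Cd3e (212) lay within the range of the other flight arrays. Cd14, at 124 against 126 to 148, was just below it. Ptprc (158 against 132 to 144) and Itgam (133 against 94.5 to 115) were above it. In bulk samples such as these, fewer cells of a type and less RNA per cell cannot be told apart.

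In flight, the type II, IX and X genes of cartilage and the FACIT gene Col14a1 were higher, whereas the 3 type V genes, the 3 type VI genes Col6a1, Col6a2 and Col6a3, and Col8a1 were lower. The type XI genes split, with Col11a2 higher and Col11a1 lower. The limma fit with a term for medium called 9 collagen genes higher and 9 lower in flight at a Benjamini-Hochberg adjusted p below 0.05 (n = 4 against 4 arrays). Over all genes, the same fit called 11.6% higher and 16.2% lower. The median difference of the 44 collagen genes was 0.05 on the log2 scale, against -0.02 over all genes. The calls split by structural class: FACIT collagens had 4 higher and 0 lower of 9, fibrillar collagens had 2 higher and 5 lower of 11, the remaining types had 3 higher and 4 lower of 18, and 0 of 6 basement membrane collagens were called. After quantile normalization between arrays the split was 8 higher and 5 lower, and without the osteoinductive microgravity array it was 6 higher and 7 lower.

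**Figure D1:**
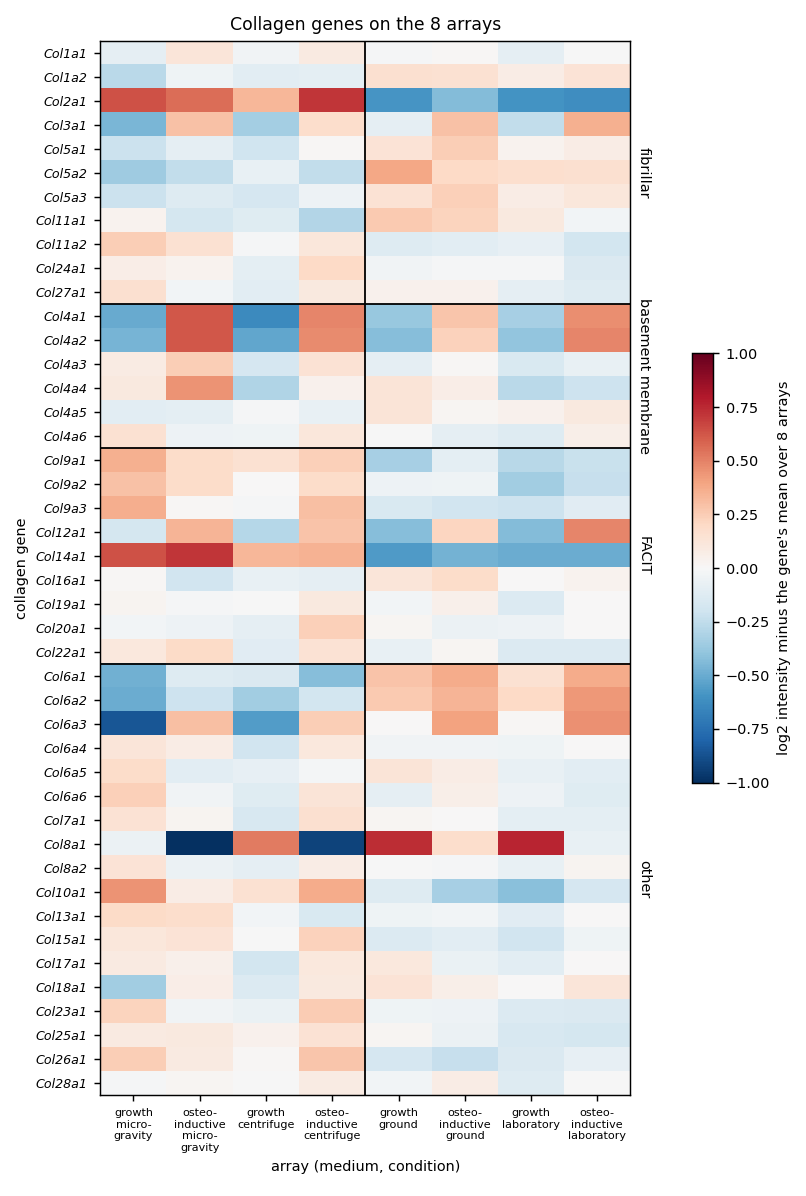
Heat map of the 44 collagen genes (rows, by structural class) on the 8 arrays (columns, flight to the left of the vertical line), with colour showing log2 intensity minus the gene's mean over the 8 arrays. Col2a1 and Col14a1 are above their means on all 4 flight arrays, Col4a1 and Col4a2 follow the medium, and Col8a1 is lowest on the osteoinductive flight arrays, past the end of the colour scale on the microgravity one.

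Among the fibrillar collagens, Col2a1, the main fibrillar collagen of cartilage, showed the largest difference. In growth medium its intensity was 870.2 in microgravity, 706 on the centrifuge, 371 on the ground and 370.5 in the laboratory. In osteoinductive medium it was 823, 918, 414 and 364 in the same order. Every flight array lay above every ground-based array. The 2 flight conditions changed order between media, with microgravity minus centrifuge at 0.30 (log2) in growth and -0.16 in osteoinductive medium. The difference was 1.12 ± 0.09 (log2, SE), or 2.17-fold, with a limma adjusted p of 2.98e-06. Col11a2, which contributes a chain to the type XI collagen in the core of cartilage fibrils, was also higher, by 0.25 ± 0.08 (adjusted p = 0.0376), with flight arrays at 388 to 461 and ground-based arrays at 343 to 368. Its call was lost in 7 of the 8 fits that left out 1 array.

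The other called fibrillar collagens were lower in flight. Col5a2, a type V chain that helps start type I fibrils, had growth medium intensities of 1079 in microgravity, 1317 on the centrifuge, 1810.4 on the ground and 1556 in the laboratory. In osteoinductive medium the values were 1166, 1165, 1590.3 and 1549.5. All 4 flight arrays were below all 4 ground-based arrays, with a difference of -0.46 ± 0.09 (adjusted p = 0.00248). The other type V genes followed at smaller sizes. Col5a1, the most widely expressed type V chain, was at 571, 578, 729 and 678 in growth medium and at 624, 668, 788 and 698 in osteoinductive medium (-0.25 ± 0.08, adjusted p = 0.0376). Col5a3 differed by -0.28 ± 0.08, Col11a1, a partner of Col11a2 in type XI collagen, by -0.28 ± 0.09. Col5a1 and Col5a3 did not overlap between flight and ground-based arrays, and Col11a1 did.

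The type I genes did not move together. Col1a2, which encodes the less abundant chain of type I collagen, was at 7672 in microgravity, 8575 on the centrifuge, 10346 on the ground and 9706 in the laboratory in growth medium, and at 8953, 8630.1, 10261 and 10185 in osteoinductive medium. Its flight arrays were all below its ground-based arrays (-0.26 ± 0.08, adjusted p = 0.0257). Col1a1, the major chain of the same protein, was at 6043, 6289.9, 6384 and 6055 in growth medium and at 7008, 6865, 6485 and 6401 in osteoinductive medium. Its flight and ground-based arrays overlapped, and its difference of 0.05 ± 0.07 was not called (adjusted p = 0.684). The log2 ratio of Col1a2 to Col1a1 within an array was 0.33 to 0.45 in flight and 0.66 to 0.70 on the ground-based arrays, a difference of -0.31. The 2 sides did not overlap. The ratio was chosen for mention after values were seen, from 14 such comparisons of chain ratios by flight or by medium. Its adjusted p over those 14 was 0.2 in an exact permutation test, so it is a description only. Col3a1, the companion of type I collagen in soft tissues, was not called between flight and ground-based arrays (-0.16 ± 0.08, adjusted p = 0.160).

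FACIT collagens that were called were all higher in flight. Col14a1, a FACIT that binds fibril surfaces and limits their fusion, was at 391 in microgravity, 317 on the centrifuge, 169.8 on the ground and 179 in the laboratory in growth medium. In osteoinductive medium it was at 412, 319.5, 181 and 179. The 4 flight arrays stood clear of the 4 ground-based arrays, and in each medium the microgravity array was the highest. The difference was 1.01 ± 0.10, or 2.02-fold, with an adjusted p of 1.28e-05.

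The type IX collagen genes, whose product decorates the type II fibrils of cartilage, were called higher in flight for all 3 chains. Col9a1 was at 473, 411, 295 and 305 in growth medium (microgravity, centrifuge, ground, laboratory) and at 420.1, 437, 347 and 317 in osteoinductive medium, a difference of 0.46 ± 0.08 (adjusted p = 0.00171). Col9a2 was at 477, 390.1, 377 and 306 in growth medium and at 443, 442, 378 and 331 in osteoinductive medium (0.33 ± 0.10, adjusted p = 0.0231). Col9a3 was at 477, 369, 334 and 321 in growth medium and at 374, 456, 324 and 343 in osteoinductive medium (0.33 ± 0.10, adjusted p = 0.0264). For each of the 3 genes every flight array was above every ground-based array, though for Col9a2 the growth centrifuge array was close to the ground arrays. With 1 array left out, Col9a1 was called in all 8 fits, while Col9a2 lost the call in 4 and Col9a3 in 6. The other 5 FACIT genes, among them Col12a1 (0.08 ± 0.09), were not called, with differences from -0.17 to 0.17.

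Basement membrane collagens showed 0 calls in either direction between flight and ground-based arrays, with a lowest adjusted p of 0.168 among the 6. Col4a1 differed by -0.01 ± 0.10 and Col4a2 by 0.05 ± 0.09. Col4a5, a chain of specialised basement membranes, was the one member of the class whose flight arrays all lay below its ground-based arrays, at a difference of -0.15 ± 0.07 that was not called.

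Among the other types, Col8a1, Col6a1, Col6a2 and Col6a3 were lower in flight, and Col10a1, Col15a1 and Col26a1 were higher. Col8a1, a short-chain network collagen of vessel walls and the corneal endothelium, was at 857 in microgravity, 1275.5 on the centrifuge, 1487 on the ground and 1514 in the laboratory in growth medium. In osteoinductive medium it was at 406, 469, 1009 and 845. Within each medium both flight arrays were below both ground-based arrays, while across media the groups overlapped because the medium moved the gene as well. The difference was -0.80 ± 0.14 (adjusted p = 0.00151), and without a term for medium it was not called (adjusted p = 0.128).

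Type VI collagen forms beaded filaments around cells, and its 3 long-known chains were lower in flight. Col6a1 was at 1841, 2321, 3121 and 2852 in growth medium (microgravity, centrifuge, ground, laboratory) and at 2342, 1912, 3319 and 3318 in osteoinductive medium. Col6a2 was at 964, 1068, 1626 and 1564 in growth medium and at 1178, 1194, 1723 and 1837 in osteoinductive medium. Both genes had all flight arrays below all ground-based arrays, with differences of -0.59 ± 0.10 for Col6a1 (adjusted p = 0.000985) and -0.62 ± 0.08 for Col6a2 (adjusted p = 9.8e-05). Col6a3 differed by -0.44 ± 0.12 (adjusted p = 0.0156), at -0.72 in growth medium and -0.15 in osteoinductive medium. The alternative chain genes Col6a4, Col6a5 and Col6a6 were not called, with differences from -0.02 to 0.10. Col6a5 and Col6a6 were the 2 collagen genes with 2 probe sets each. The dimmer probe set gave 0.23 in place of -0.02 for Col6a5 and 0.06 in place of 0.10 for Col6a6.

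Col10a1, the collagen of hypertrophic chondrocytes, was at 221 in microgravity, 179 on the centrifuge, 148 on the ground and 121 in the laboratory in growth medium, and at 170.4, 209, 129 and 144 in osteoinductive medium. Every flight array exceeded every ground-based array (0.52 ± 0.11, adjusted p = 0.00334), at levels near the 40th percentile of all probe sets. Col26a1, a collagen with an EMI domain, was at 577, 492, 434 and 439 in growth medium and at 517, 589, 416 and 459 in osteoinductive medium (0.31 ± 0.09, adjusted p = 0.0184). Col15a1, found at the border of basement membranes, had flight arrays at 266 to 312 and ground-based arrays at 234 to 258 (0.24 ± 0.08, adjusted p = 0.0355). These 3 genes, like the type IX genes, had no overlap between flight and ground-based arrays. The 11 members of the other types that were not called ranged from -0.16 to 0.19, and included Col18a1, the parent chain of endostatin.

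**Figure D2:**
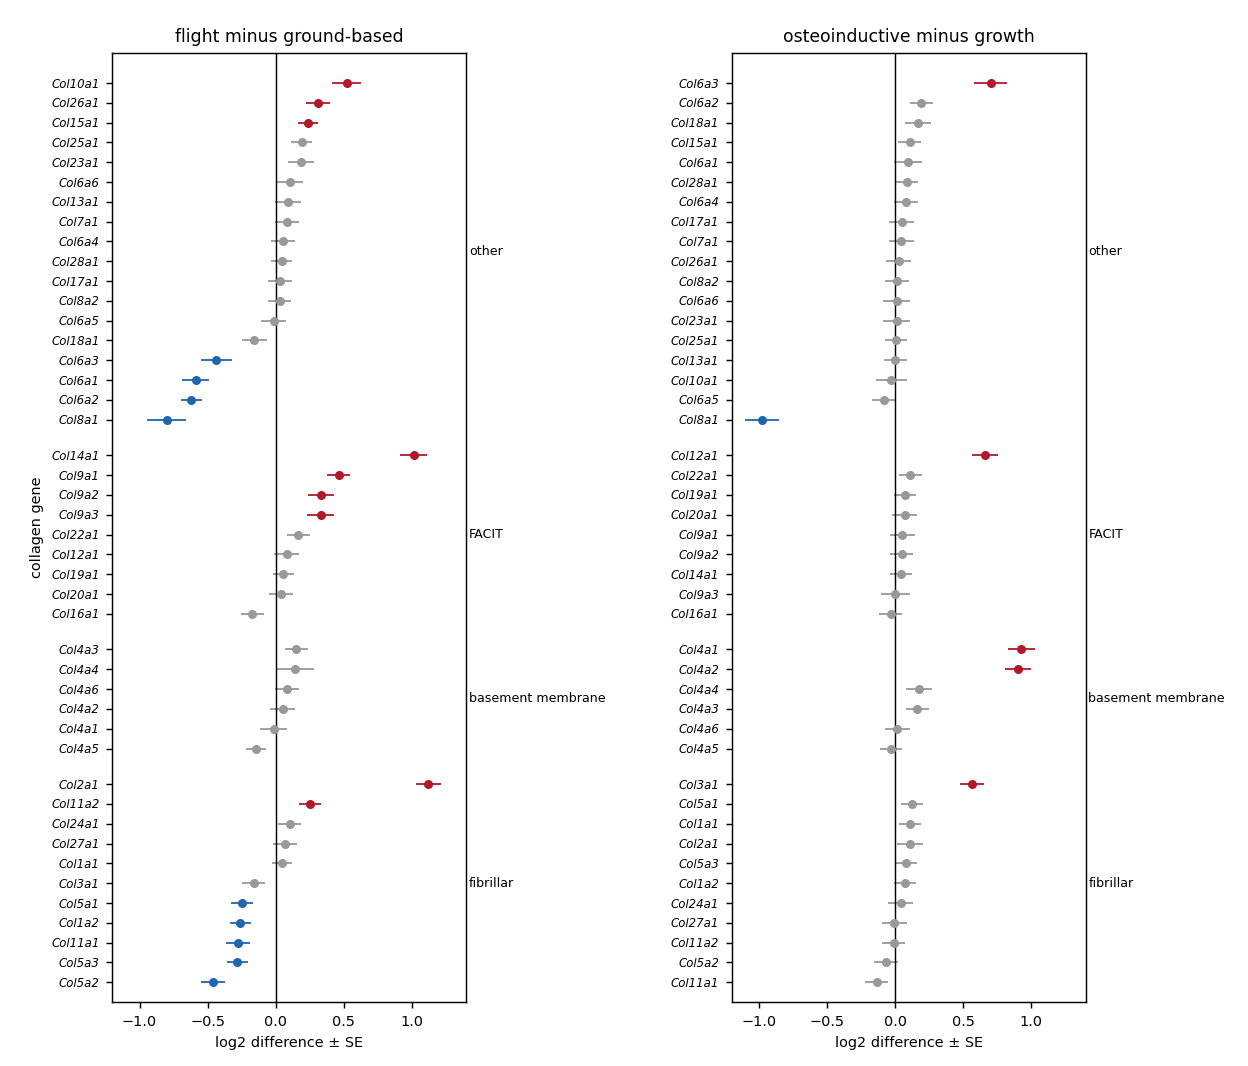
Log2 difference with its standard error for each of the 44 collagen genes, by structural class, for flight minus ground-based (left) and osteoinductive minus growth medium (right). Red and blue points passed an adjusted p of 0.05 as higher and lower, and grey points did not; the left panel has 9 of each colour and the right panel has 5 red points and 1 blue point.

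Over the whole family, 10 genes had all 4 flight arrays above all 4 ground-based arrays, as did 11.8% of all genes, and 7 had them all below, as did 11.7%. The direction of the differences went with brightness. Of the 15 collagen genes with a mean log2 intensity of 9 or more, 11 had a negative difference, with a median of -0.25, and of the 29 dimmer ones 4 did, with a median of 0.10. Among the genes above the 40th percentile, 84.6% of the 4688 with a mean of 9 or more were lower in flight, with a median of -0.20, and 51.0% of the 8517 dimmer ones were. The part of brightness in the lower values of the type V genes, Col6a1, Col6a2 and Col6a3 was not tested. After quantile normalization 13 of the 18 genes were called. Col2a1, Col14a1, Col9a1, Col10a1, Col5a2, Col6a1, Col6a2 and Col8a1 were among them with differences of 1.22, 1.00, 0.51, 0.43, -0.30, -0.42, -0.46 and -0.67, while Col5a1, Col5a3, Col6a3, Col11a1 and Col15a1 were not called (adjusted p = 0.407, 0.114, 0.0888, 0.320 and 0.0582). The 8 genes named first were also called whichever single array was left out. Of the other 10 called genes, Col11a2 and Col15a1 lost the call in 7 of the 8 fits with an array left out, Col1a2 and Col9a3 in 6, Col5a1 and Col11a1 in 5, Col9a2 in 4, and Col5a3, Col6a3 and Col26a1 in 2. The count fell from 18 to 10 without the growth ground array, to 11 without the growth laboratory array and to 10 without the osteoinductive ground array.

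Osteoinductive medium went with higher Col4a1, Col4a2, Col6a3, Col12a1 and Col3a1 and with lower Col8a1. The limma fit with terms for condition and medium called 5 collagen genes higher and 1 lower (n = 4 against 4 arrays), where it called 4.18% of all genes higher and 4.27% lower. The median difference of the 44 genes was 0.05, against 0.01 over all genes. The count was 5 or 6 under the alternatives run, and 5 of the 6 genes were called under each of them. Type I, type II and type X collagen genes were not among those called: Col1a1 differed by 0.11 ± 0.08 (adjusted p = 0.506), Col1a2 by 0.07, Col2a1 by 0.11, Col5a1 by 0.12, Col6a1 by 0.09 and Col10a1 by -0.03.

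The largest increases were in Col4a1 and Col4a2, the chains that build the common type IV network. Col4a1 was at 515, 471, 563 and 579 in growth medium (microgravity, centrifuge, ground, laboratory) and at 1126, 1026, 887 and 1006 in osteoinductive medium. Col4a2 was at 485, 469, 501 and 509.8 in growth medium and at 1029.7, 930.0, 786 and 940.2 in osteoinductive medium. For both genes every osteoinductive array was above every growth array, and the step was present in each of the 4 conditions. The differences were 0.93 ± 0.10 for Col4a1 (1.90-fold, adjusted p = 0.000172) and 0.90 ± 0.09 for Col4a2 (1.87-fold, adjusted p = 0.000124). The other 4 type IV genes, Col4a3 to Col4a6, were not called, with differences from -0.03 to 0.17.

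Col4a1 and Col4a2 lie head to head and share a promoter region, which is why both sequences are shown, with that of Col8a1, the 1 gene that was lower. The sequences are RefSeq windows of build GRCm38.p6, from 250 bases before to 50 bases after the start of the gene, and 35 of the 44 collagen genes had such a window. The Col4a1 window is at chr8:11312777-11313076 on the minus strand and the Col4a2 window at chr8:11312555-11312854 on the plus strand, and they overlap by 78 bases. The Col8a1 window is at chr16:57754688-57754987 on the minus strand. Capitals mark matches on either strand to the CCAAT box (CCAAT) and the GC box (GGGCGG), and a TATA box (TATAAA) was searched as well. The shown sequences run 5′ to 3′ along the gene's own strand.
Col4a1: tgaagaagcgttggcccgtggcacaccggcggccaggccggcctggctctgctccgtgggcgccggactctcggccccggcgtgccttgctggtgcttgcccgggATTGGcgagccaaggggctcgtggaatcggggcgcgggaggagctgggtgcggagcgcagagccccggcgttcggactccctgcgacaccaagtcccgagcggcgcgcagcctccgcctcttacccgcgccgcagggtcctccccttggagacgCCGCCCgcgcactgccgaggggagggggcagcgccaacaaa
Col4a2: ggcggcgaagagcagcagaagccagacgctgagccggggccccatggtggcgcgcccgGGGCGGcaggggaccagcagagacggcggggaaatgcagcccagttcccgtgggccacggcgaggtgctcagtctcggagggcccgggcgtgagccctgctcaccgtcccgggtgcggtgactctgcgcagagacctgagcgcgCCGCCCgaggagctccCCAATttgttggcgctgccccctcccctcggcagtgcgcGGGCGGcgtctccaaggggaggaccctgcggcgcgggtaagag
Col8a1: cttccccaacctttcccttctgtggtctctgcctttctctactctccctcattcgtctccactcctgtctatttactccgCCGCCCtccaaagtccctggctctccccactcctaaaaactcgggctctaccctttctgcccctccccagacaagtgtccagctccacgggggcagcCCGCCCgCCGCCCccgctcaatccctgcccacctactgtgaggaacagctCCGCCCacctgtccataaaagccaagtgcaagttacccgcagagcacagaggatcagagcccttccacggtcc
The Col4a1 window held 1 CCAAT box and 1 GC box, the Col4a2 window 1 CCAAT box and 3 GC boxes, and the Col8a1 window 4 GC boxes. None of the 3 windows held the letters TATAAA. Of 32851 windows in the RefSeq table, 37.4% held a CCAAT box, 35.7% a GC box and 13.6% a TATA box. Of the 38 windows of collagen genes, 13 held a CCAAT box, 23 a GC box and 5 a TATA box. Such matches describe the letters only and say nothing of binding.

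Col8a1 was the collagen gene lower in osteoinductive medium. Its 8 values, given above, were 406 to 1009 in osteoinductive medium and 857 to 1514 in growth medium, and within each condition the osteoinductive array was the lower one. The difference was -0.98 ± 0.12 (adjusted p = 0.000473), and the value on the growth microgravity array lay below the osteoinductive ground array, so the groups overlapped. Col12a1, a FACIT of dense connective tissue and periosteum, was at 530.2, 492, 446 and 443 in growth medium (microgravity, centrifuge, ground, laboratory) and at 757, 728, 694 and 841 in osteoinductive medium. Every osteoinductive array was higher (0.66 ± 0.09, adjusted p = 0.00102).

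Col3a1 was at 1906, 2061, 2459 and 2205 in growth medium and at 3198, 2950.3, 3205 and 3348 in osteoinductive medium, without overlap. The difference was 0.56 ± 0.09 (adjusted p = 0.00241). Col6a3 was at 1070.3, 1317, 1941 and 1962 in growth medium and at 2385, 2307, 2561 and 2663 in osteoinductive medium. All osteoinductive arrays were above all growth arrays, with a wider step on the flight arrays than on the ground-based ones. The difference was 0.70 ± 0.12 (adjusted p = 0.00396), and the call was lost without the growth centrifuge array or without the osteoinductive centrifuge array (highest adjusted p = 0.0542). Col6a1 and Col6a2, the partner chains of Col6a3 in the same trimer, were not called by medium. The log2 ratio of Col6a3 to Col6a1 was -0.37 to 0.27 on osteoinductive arrays and -0.82 to -0.54 on growth arrays, a difference of 0.61. This ratio too was chosen after values were seen, from the same 14 comparisons. Its adjusted p was 0.2 in the exact permutation test, so it is a description only. Col1a1 and Col28a1 also had every osteoinductive array above every growth array without being called, so that 7 collagen genes had no overlap in that direction, against 5.17% of all genes.

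**Figure D3:**
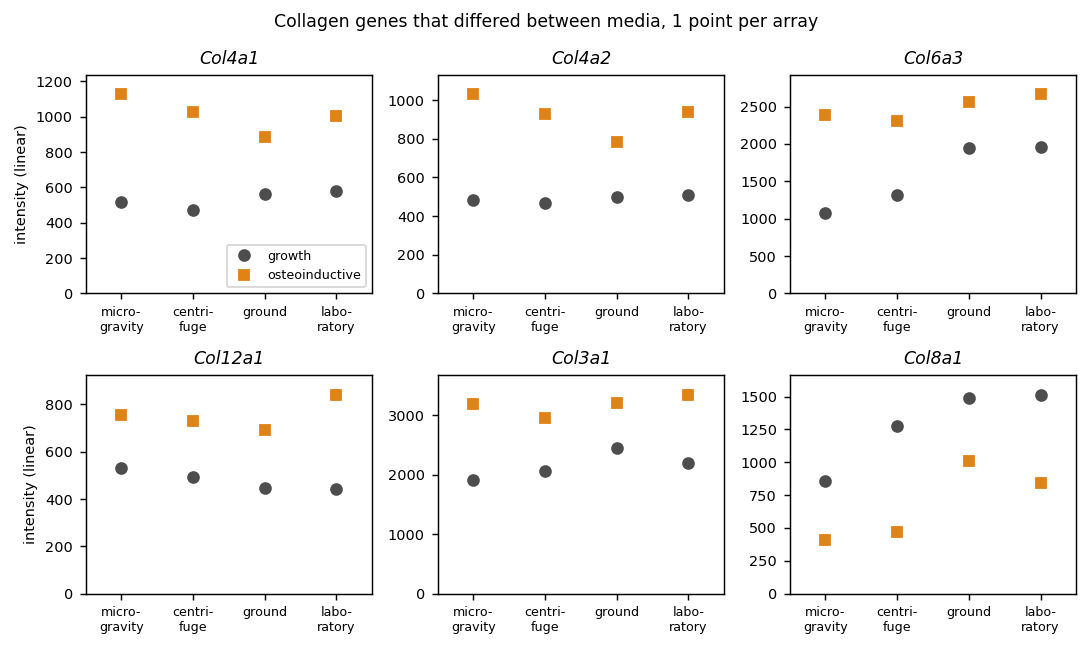
Linear intensity of the 6 collagen genes called between media, with 1 point per array, for the 4 conditions on the horizontal axis and growth (grey circles) and osteoinductive (orange squares) medium. For Col4a1, Col4a2, Col6a3, Col12a1 and Col3a1 each orange point is above the grey points, and for Col8a1 each is below the grey point of the same condition.

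Microgravity was then set against the 1 g centrifuge, which flew alongside it. No collagen gene was called higher or lower by limma (0 of 44), and 0% of all genes were called. At an unadjusted p below 0.05 there were 4 collagen genes, against 10.6% of all genes. These were Col4a4, which differed by 0.40 ± 0.14 (adjusted p = 0.359) and by 0.40 in growth medium alone, Col14a1, by 0.34 ± 0.11, Col13a1, a transmembrane collagen, by 0.27 ± 0.12, and Col8a1, by -0.39 ± 0.18. On simulated data, the same fit found 100% of genes changed 2-fold and 41% of those changed 1.41-fold, so smaller differences could be missed. The fibril collagens Col1a1, Col1a2 and Col3a1 differed by -0.01, -0.05 and 0.00 in this comparison.

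The direction of the single-array differences between microgravity and centrifuge depended on the medium for the dimmer collagen genes. In growth medium, 26 of the 29 collagen genes with a mean log2 under 9 were higher in microgravity, with a median of 0.23. In osteoinductive medium 7 of the 29 were, with a median of -0.08. Over all genes above the 40th percentile of the same brightness, 52.4% and 51.6% were higher in the respective media. The 15 brighter collagen genes had a median of -0.11 in growth medium and 0.05 in osteoinductive medium, beside -0.30 and -0.01 over all bright genes. Each of these differences compares 1 array with 1 other, without a test, and the brightness limit was set after values were seen.

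**Figure D4:**
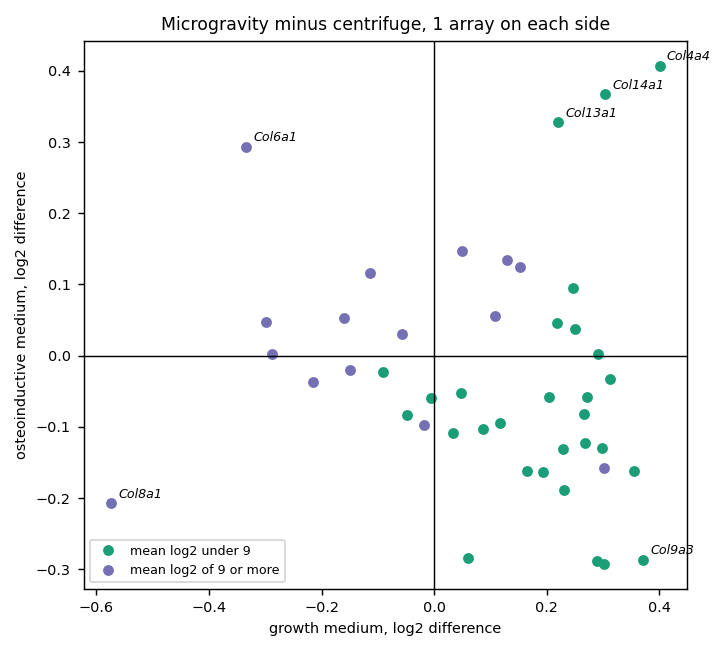
Difference in log2 intensity between the microgravity and the centrifuge array for the 44 collagen genes, in growth medium (horizontal axis) and osteoinductive medium (vertical axis), coloured by mean log2 intensity. Of the 29 dimmer genes (green), 26 lie right of zero and 7 lie above it.

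Each flight condition was also compared with the ground hardware. The 2 comparisons share the ground arrays, so their values stand side by side and are no independent evidence. Microgravity minus ground gave 4 collagen genes higher and 5 lower, where 9.6% of all genes were higher and 10.6% lower. Centrifuge minus ground gave 2 higher and 5 lower, where 5.34% of all genes were higher and 2.27% lower. Col2a1 differed by 1.11 ± 0.14 in microgravity and by 1.04 ± 0.14 on the centrifuge, and Col14a1 by 1.20 ± 0.11 and 0.86 ± 0.11, all 4 called. Col8a1 differed by -1.05 ± 0.18 and -0.66 ± 0.18, Col6a1 by -0.63 ± 0.15 and -0.61 ± 0.15, Col6a2 by -0.65 ± 0.12 and -0.57 ± 0.12, and Col5a2 by -0.60 ± 0.12 and -0.45 ± 0.12, again all called. Col9a1 (0.48 and 0.41), Col10a1 (0.49 and 0.49) and Col5a3 (-0.36 and -0.30) passed in microgravity and missed the threshold on the centrifuge, and Col11a1 (-0.31 and -0.45) passed on the centrifuge alone; microgravity minus centrifuge was not called for any of them. After quantile normalization, centrifuge minus ground had 2 higher and 2 lower. The count for microgravity fell from 9 to 4 without the growth microgravity or the growth ground array and to 5 without the osteoinductive ground array. The count for the centrifuge fell from 7 to 3 without the growth ground array and to 2 without the osteoinductive centrifuge or the osteoinductive ground array.

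Ground hardware against laboratory dishes gave 0 called collagen genes in limma, and 0% of all genes were called. A single collagen gene, Col4a4, had an unadjusted p below 0.05 (0.33 ± 0.14, with an adjusted p of 1 in limma), as did 2.41% of all genes. The 11 fibrillar collagens differed by 0.02 to 0.21 between ground hardware and dishes, all in the same direction, and 0 of them were called.

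Whether the flight difference itself depended on the medium was tested by an interaction term in limma. It called 0 collagen genes and 0% of all genes. At an unadjusted p below 0.05 there were 3 of 44 (6.82%), against 4.22% of all genes. Col6a3 differed between flight and ground-based arrays by -0.72 in growth and -0.15 in osteoinductive medium (interaction 0.56 ± 0.18), Col8a1 by -0.52 and -1.08 (-0.56 ± 0.25), and Col4a1 by -0.21 and 0.19 (0.40 ± 0.17), each with an adjusted p of 1.00. On simulated data this term found 89% of genes with a 2-fold interaction and 11% of those with a 1.41-fold one. The simulated shift was equal on both osteoinductive flight arrays, so these shares do not cover a shift on a single array.

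The machinery that modifies, exports, trims, crosslinks and binds collagen was measured for 44 of 48 listed genes. In flight, 24 of these were called lower and 3 higher, where 16.2% of all genes were lower and 11.6% higher. Their median difference was -0.31, against -0.02 over all genes. As in the collagen genes, the direction went with brightness. Of the 24 machinery genes with a mean log2 intensity of 9 or more, 23 had a negative difference (median -0.37), where 84.6% of all genes that bright did (median -0.20), and of the 20 dimmer ones 10 did (median -0.02), where 51.0% of all such genes above the 40th percentile did. The machinery genes were not tested against other genes or against the collagen genes, and the part of brightness in their lower values was not tested. Prolyl and lysyl hydroxylases and their partners, which stabilise the helix and prepare crosslinks, had 10 lower and 0 higher of 12, with a median of -0.38. Genes of folding, glycosylation and export had 6 lower and 1 higher of 12, crosslinking enzymes 3 lower and 0 higher of 4, procollagen cleavage genes 3 lower and 2 higher of 7, and receptors and uptake genes 2 lower and 0 higher of 9.

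The largest decreases were in Loxl3, a lysyl oxidase family member (-0.86 ± 0.12, adjusted p = 0.000283), and in Serpinh1, the collagen chaperone of the endoplasmic reticulum (-0.66 ± 0.09, adjusted p = 0.000156). Serpinh1 was at 496 and 593 on the growth flight arrays, 840.4 and 813 on the growth ground-based arrays, 507 and 512 on the osteoinductive flight arrays and 894 and 778 on the osteoinductive ground-based arrays. No flight array reached the ground-based arrays. Sec24d, a coat protein of the vesicles that carry procollagen, differed by -0.62 ± 0.11, and Itga11, a collagen-binding integrin subunit, by -0.57 ± 0.09. The 3 genes that were higher were Pcolce2, an enhancer of procollagen C-terminal trimming (0.88 ± 0.12), Adamts3, a procollagen N-proteinase with a preference for type II (0.84 ± 0.10), and Colgalt2, a collagen galactosyltransferase (0.25 ± 0.09). Pcolce2, at 127 to 193 in flight and 76 to 92 on the ground-based arrays, and Colgalt2, at 75 to 90 and 64 to 74, had mean levels under the 40th percentile of all probe sets, where log2 differences rest on dim signals. After quantile normalization 14 of the 44 genes were lower and 2 higher, and without a term for medium 12 and 2. Leaving out the growth or the osteoinductive laboratory array reduced the 27 calls to 18 in either case.

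**Figure D5:**
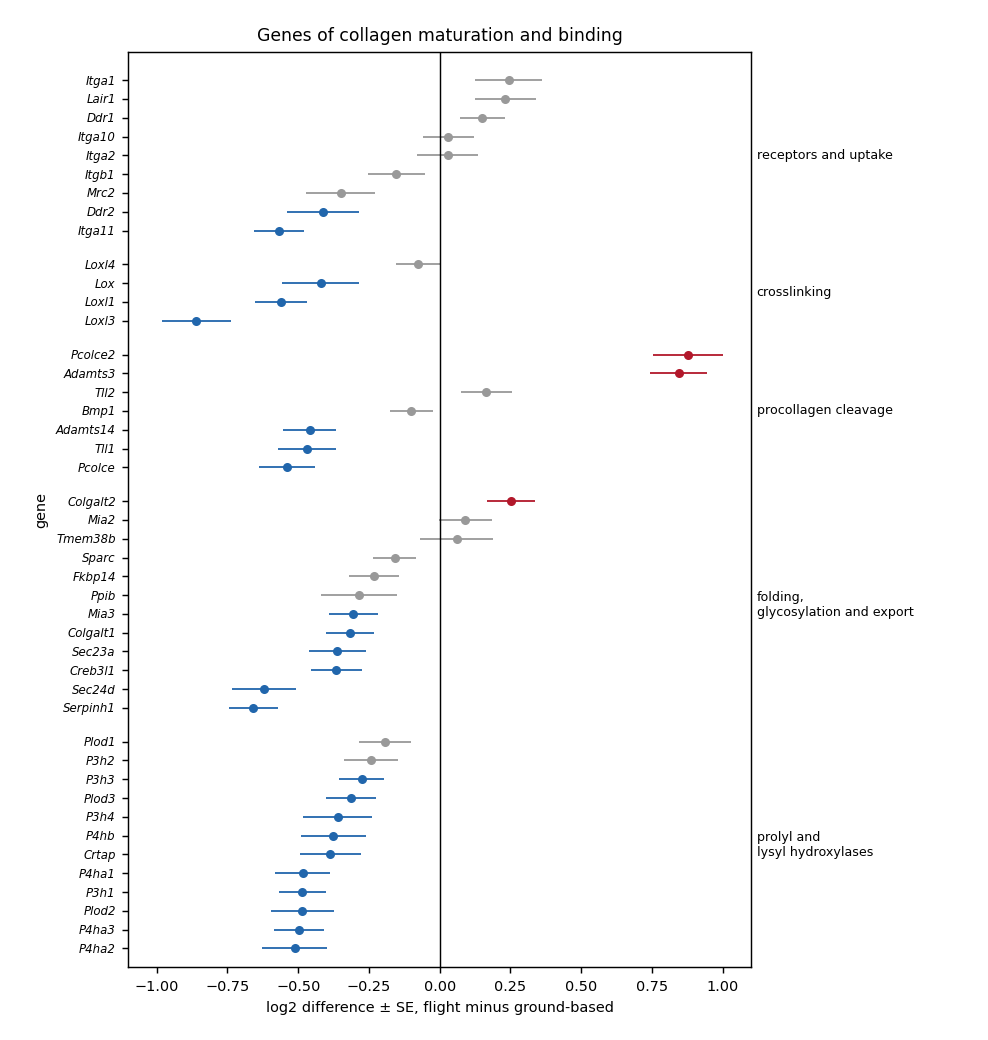
Log2 difference with its standard error, flight minus ground-based, for the 44 measured genes of collagen modification, export, cleavage, crosslinking and binding, by list. Blue points (24) passed an adjusted p of 0.05 as lower and red points (3) as higher, and grey points did not pass.

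By medium, 8 of the 44 machinery genes were higher in osteoinductive medium and 2 lower, where 4.18% of all genes were higher and 4.27% lower. Their median was 0.13, against 0.01 over all genes. The largest increases were in Lox, the founding lysyl oxidase (1.10 ± 0.13, adjusted p = 0.000285), Mrc2, an endocytic receptor for collagen (0.87 ± 0.13), Plod1, a lysyl hydroxylase (0.82 ± 0.10), and P4ha2, a prolyl 4-hydroxylase subunit (0.80 ± 0.10). The decreases were in P3h2, a prolyl 3-hydroxylase with type IV collagen among its substrates (-0.50 ± 0.09), and Sec23a, a partner of Sec24d in the vesicle coat (-0.41 ± 0.11). Lox, higher in osteoinductive medium, was lower in flight (-0.42 ± 0.14). It was at 568, 423, 730 and 698 in growth medium (microgravity, centrifuge, ground, laboratory) and at 1078, 1209, 1133 and 1745 in osteoinductive medium. There the centrifuge array lay above the ground array.

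Markers of other cell types moved with the flight comparison, in which 11.6% of all genes were called higher and 16.2% lower. Of 10 chondrocyte markers that are not collagens, 6 were called higher in flight and 0 lower, with a median difference of 0.36, and their summed intensity was 2244 to 2474 on flight arrays and 1809.6 to 2190.4 on ground-based arrays. Acan, the cartilage proteoglycan aggrecan, was at 182 to 263 in flight and 105 to 126 on the ground-based arrays, while Sox9, the cartilage transcription factor, was not called (-0.24 ± 0.09, adjusted p = 0.0652). All 12 neuronal markers were higher in flight (median 2.24), as were 10 of 12 skeletal muscle markers (median 1.47), 10 of 11 endothelial markers (median 0.57), 6 of 12 lung epithelium markers (median 0.73) and 3 of 6 osteoblast markers (median 0.31). Their summed intensities in flight and on the ground-based arrays were 9633 to 14485 and 2878 to 3966 for neuronal, 7193 to 9630.4 and 2570.3 to 2739 for skeletal muscle, 2345 to 3914 and 1749.6 to 1825 for endothelial, 3137 to 16250 and 1816 to 2017 for lung and 919 to 1151 and 687 to 713 for osteoblast markers. The osteoinductive microgravity array set the upper ends for lung and endothelial markers, and on the other 3 flight arrays the sums were 3137 to 4035 and 2345 to 2590. Marrow stromal markers had 5 lower and 2 higher of 11, with sums of 15016 to 17318 in flight and 19838 to 21394 on the ground-based arrays. Much of that gap lay in Vim, at 6094 to 7448 in flight and 9256 to 9759 on the ground-based arrays. The mean log2 of the list was 9.10 to 9.25 in flight and 9.26 to 9.32 on the ground-based arrays. Myofibroblast and smooth muscle markers had 1 higher and 1 lower of 8, with a median of 0.02 and sums of 2802 to 3972 in flight and 6465 to 7245 on the ground-based arrays. That gap lay in Acta2, the smooth muscle actin gene, at 1166 to 2034 in flight and 4863 to 5508 on the ground-based arrays, and without it the sums were 1635 to 2105 and 1602 to 1737. Haematopoietic and macrophage markers had 0 higher and 2 lower of 9, with sums of 1549 to 2304 in flight and 1633 to 1942 on the ground-based arrays. The highest sum was on the osteoinductive microgravity array, where Lyz2 alone gave 841, against 207 to 222 on the other 3 flight arrays. The part of these cell types in the higher Col2a1, Col9a1, Col10a1 and Col14a1 and in the lower type V genes, Col6a1, Col6a2 and Col6a3 was not tested. By medium, 4.18% of all genes were called higher and 4.27% lower. Of the markers, 0 of 11 endothelial, 0 of 8 myofibroblast and 0 of 6 osteoblast genes were called, the last with a median of -0.04. Lung epithelium markers had 1 higher of 12 (median 0.41), and marrow stromal markers had 1 higher and 2 lower of 11. Skeletal muscle markers had 1 lower of 12, and haematopoietic and macrophage markers 1 lower of 9. Of 10 chondrocyte markers, 2 were called higher and 0 lower, but only 4 had a positive difference and the median was -0.06. Of 12 neuronal markers, 6 were called lower. The part of these cell types in Col4a1 and Col4a2 was not tested.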

How the data were processed

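Expression was measured on 8 Affymetrix arrays, 1 for each of 2 media and 4 conditions. Each probe set has 1 deposited value, a linear intensity already normalized by the authors. RMA and GCRMA are both named in the submitters' processing notes, which do not say which of them gave these values. A genome build used by the authors is not stated there. No further normalization was applied, and log2 of the deposited intensities was analysed with 0 added. Of 35557 probe sets, 21789 named 1 gene in GEO's platform annotation, 1621 several and 12147 none, and 21698 gene IDs matched RefSeq (GRCm38.p6). The brightest single-gene probe set stood for each of 19938 genes.

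All 8 arrays were fitted with limma 3.58.1 in R 4.3.3 (lmFit and eBayes, two-sided, threshold 0.05 after Benjamini-Hochberg adjustment over all genes, separately for each of 7 comparisons). Flight was fitted with a term for medium (5 residual degrees of freedom), the medium comparison and the comparisons between conditions with terms for medium and the 4 conditions (3), and the interaction of flight and medium with both main terms (4). With 1 array per medium and condition, the number of arrays limits the precision. The fits were tested on simulated data for 19938 genes: flight recovered 95% of 1.41-fold changes and medium 92%, and of the calls made 7.58% and 6.80% were false.

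Collagen genes passing the threshold were named, with values on all arrays for up to 12 per comparison and for a fixed set of 10 genes. Of the machinery genes, the 4 largest changes in each direction were named. The members, gene lists and markers were chosen with earlier results of these data known. Probe sets of Fkbp10, Adamts2, Loxl2 and Gp6 among the machinery genes, and of Ly6a, Runx2, Bglap, Bglap2 and Spp1 among the markers, were not analysed here. Alternatives were a brightness filter at the 40th or 60th percentile, quantile normalization, 32 added before log2, the mean of all probe sets of a gene, a variance trend, other model terms and leaving out each array.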

Additional observations from a re-analysis of the deposited data

Results flagged for a closer look

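Col4a1 differed in sign between the media. In growth medium both flight arrays were below both ground-based arrays, with a mean difference of -0.21 on the log2 scale. In osteoinductive medium the microgravity array (1126) and the centrifuge array (1026) were above the ground (887) and the laboratory array (1006), with a mean difference of 0.19. The difference between the media was 0.40 ± 0.17, and the interaction test in limma did not pass (adjusted p = 1.00). Col4a2, its neighbour on the chromosome, had mean differences of -0.08 and 0.19.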

How the results depend on the processing

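No called collagen gene reversed its direction under the alternatives run. Of the values that genes described singly took under an alternative, 463 kept their side of the threshold and 59 no longer passed it. With 1 array left out, the flight count of 18 ranged from 10 to 19, microgravity minus ground (9) from 4 to 11 and centrifuge minus ground (7) from 2 to 6. Quantile normalization gave 4 for centrifuge minus ground and 16 for the 27 machinery genes, which also fell to 14 without a term for medium. Microgravity minus centrifuge, ground minus laboratory and the interaction had 0 collagen calls under every alternative run. At an unadjusted limma p under 0.05 the fits reported had 4, 1 and 3, against 10.6%, 2.41% and 4.22% of all genes. The cause of the changed counts was not tested. No paired analysis was possible because each group holds 1 array, so that no replicate numbers link groups; the terms for medium and condition are the blocks this design allows. Flight genes called in every fit numbered 7 of 18, and medium genes 5 of 6.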
